A study of Mus musculus with 3 samples.

Results

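Cholesterol and fatty acid synthesis genes were followed on 3 Affymetrix expression arrays of cultured mouse dermal fibroblasts, 1 array per genotype. The set was chosen by name, as 33 genes of both pathways, with earlier results of these data known. Of the 33, 25 were found among the 7842 genes that the array names, each through probe sets annotated to that gene alone. They comprised 15 sterol synthesis enzymes, 9 genes of the fatty acid branch and the regulator Srebf1. The 8 that were not analysed here were Pmvk, Acat2, Acaca, Fads2, Acsl1, Insig1, Srebf2 and Stard4. FGFR3Act cells came from Fgfr3G374Rneo- mice, in which the receptor Fgfr3 is active without its ligand. FGFR3KO cells, from FGFR3G374Rneo+ mice, make no working receptor per the labels. FGFR3WT cells were taken from Bl6 animals without the mutation. All were grown in fibroblast medium without treatment. No source used here gives the strain of the mutant mice, any age or the number of animals behind an array.

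Cholesterol is built from acetyl-CoA through mevalonate, isoprenoids, squalene and lanosterol, and the early isoprenoids also supply protein prenylation. Fatty acids are built from the same acetyl-CoA by citrate lyase, a carboxylase and fatty acid synthase, and are then elongated and desaturated. When sterols are scarce, SREBP2 is released from the endoplasmic reticulum and switches on the sterol enzymes, while SREBP1, encoded by Srebf1, acts more on the fatty acid enzymes. Fibroblasts in culture make sterols for new membranes and take them up from serum lipoproteins.

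The series states n = 3 for each group, but the table has 1 column per genotype, so no error between cultures could be computed and no difference below carries a test. Each value is a MAS5 signal, Affymetrix's summary of the probes of 1 probe set. Signals under the 40th percentile of an array (123 on FGFR3Act, 122 on FGFR3KO and 121 on FGFR3WT) were raised to that floor before log2 was taken. Of the 25 genes, 24 were above the floor on all 3 arrays, and the remaining gene, Dhcr7, was below it on FGFR3Act. Fgfr3 itself read 2.42, 3.76 and 1.06 on FGFR3Act, FGFR3KO and FGFR3WT, below the floor throughout, so its probe set gave no check of the labels. The only measure of error within an array was how far probe sets of the same gene disagreed. Between FGFR3Act and FGFR3WT, the log2 differences from the 2 brightest probe sets of a gene lay a median of 0.30 apart, and 0.89 at the 90th percentile, over 425 genes. Between FGFR3KO and FGFR3WT these gaps were 0.39 and 0.94 over 422 genes.

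Every measured sterol enzyme had its lowest signal on FGFR3Act. In the comparison with FGFR3WT, 15 of 15 were lower, against 55.7% of the 5244 genes compared, and 8 of 15 were at least 2-fold lower, against 4.79% of all genes. That count was 7 with quantile normalisation, 6 with cyclic loess and 6 of 13 with the floor at the 60th percentile. All genes gave 4.04%, 3.72% and 3.84% in these settings. None of the 15 was at least 2-fold higher, where all genes gave 4.14%. The median log2 difference was -1.06, or 2.09-fold lower, beside -0.068 over all genes compared. For 9 of the 15 the difference exceeded the 90th percentile of the gap between probe sets, and for 1 of 9 fatty acid genes. The share of all genes beyond that gap was not computed. Their 5th and 95th percentiles in this pair were -0.99 and 0.90, both past that gap, so the 1 of 9 is not set apart from all genes. The smallest difference, that of Ebp, turned positive after quantile normalisation (0.051) or cyclic loess (0.091), which left 14 of 15 lower.

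The FGFR3Act array also carried macrophage transcripts. Of 20 macrophage and leukocyte markers measured, 17 were above the floor on FGFR3Act and 2 on each other array (Cd14 and Cx3cr1), and their summed signal was 45461 on FGFR3Act, 1735 on FGFR3KO and 1445 on FGFR3WT. Dermal fibroblast markers were above the floor for 16 of 17 genes on every array, with Prrx1 below it. Their summed signal was 66454 on FGFR3Act, 93115 on FGFR3KO and 71942 on FGFR3WT. Their median log2 difference was -0.13 between FGFR3Act and FGFR3WT, 0.25 between FGFR3KO and FGFR3WT, and -0.49 between FGFR3Act and FGFR3KO. The FGFR3Act array had 11 of 21 mitotic genes above its floor and a summed signal of 4183 for them, against 20 and 23071 for FGFR3KO and 19 and 12556 for FGFR3WT. The part of the macrophage and mitotic transcripts in the sterol result was not tested. In such bulk RNA, fewer cells that make sterols and less sterol enzyme RNA per cell cannot be told apart. Adipocytes also make much fatty acid. Of 8 adipocyte markers, 4 were above the floor on FGFR3Act and 3 on each other array, with summed signals of 3792, 2976 (FGFR3KO) and 2700.2 (FGFR3WT). Adipoq, Pparg, Cidec and Retn were below the floor on all 3 arrays.

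**Figure D1:**
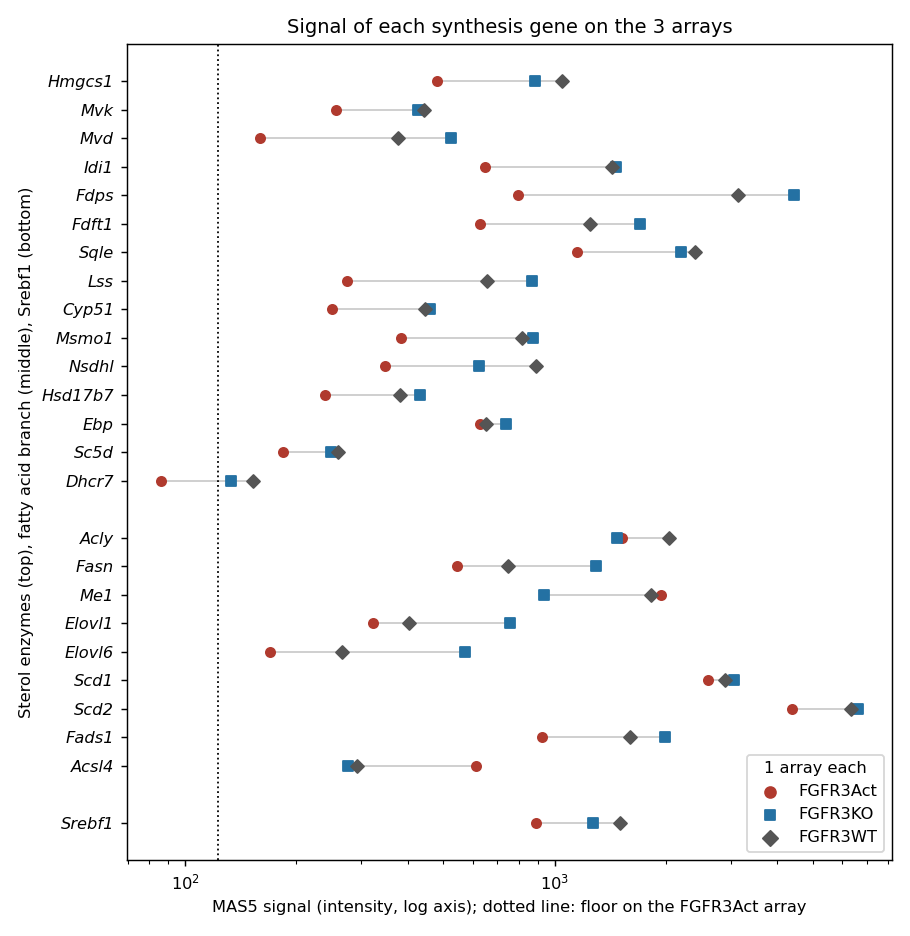
MAS5 signal (log axis) of each of the 25 genes on the FGFR3Act (circle), FGFR3KO (square) and FGFR3WT (diamond) array, 1 array each, with the floor of the FGFR3Act array as a dotted line. In all 15 sterol enzymes the circle is leftmost, whereas in the fatty acid branch the leftmost point is FGFR3Act for 6 genes and FGFR3KO for 3.

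Along the mevalonate and isoprenoid steps, 4 of 5 enzymes stood 2-fold or more below FGFR3WT on the FGFR3Act array. Farnesyl diphosphate synthase, Fdps (probe set 160424_f_at), makes the farnesyl unit used for both sterols and prenyl groups. Its signal was 797 on FGFR3Act but 4441 on FGFR3KO and 3130.4 on FGFR3WT. That put FGFR3Act 3.93-fold below FGFR3WT, the 22nd lowest difference among 5244 genes. The second Fdps probe set, 99098_at, gave 575, 2282 and 1707 in the same order of arrays, a 2.97-fold lower signal on FGFR3Act. Mvd, the decarboxylase that makes isopentenyl diphosphate, read 159.5 on FGFR3Act against 524 on FGFR3KO and 377 on FGFR3WT, which is 2.36-fold below FGFR3WT. With the floor at the 60th percentile that difference was a bound of only -0.17 in log2. In all of these FGFR3Act was the low array. Idi1, which isomerises isopentenyl diphosphate, stood at 649, 1467 and 1432, with FGFR3KO and FGFR3WT close together and FGFR3Act 2.21-fold below FGFR3WT. Hmgcs1, the synthase that commits acetyl-CoA to the pathway, stood at 482, 887 and 1044, or 2.17-fold lower on FGFR3Act. Mvk, mevalonate kinase, was 1.73-fold lower, at 257 against 443 on FGFR3WT.

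From squalene to lanosterol, the 3 enzymes were lower on FGFR3Act by similar amounts. Lss, which closes the ring system of lanosterol, read 275 on FGFR3Act against 867 on FGFR3KO and 657 on FGFR3WT, which put FGFR3Act 2.39-fold below FGFR3WT. Sqle, the oxygen-dependent epoxidase that is a control point of the pathway, stood at 1152, 2196 and 2404, which is 2.09-fold lower. Fdft1, squalene synthase, stood at 629, 1706 and 1247, and its difference, 1.98-fold lower, was just short of 2-fold.

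The steps after lanosterol differed less, with a median of -0.67 over 7 enzymes against -1.14 over the 5 mevalonate and isoprenoid enzymes. That -0.67 counts Dhcr7 at a bound set by the floor. In other settings Dhcr7 reached -0.83, so the size of this contrast depends on the floor. Only Nsdhl and Msmo1, which both remove the methyl groups of lanosterol, were at least 2-fold lower. Nsdhl (98631_g_at) stood at 348 on FGFR3Act, 625 on FGFR3KO and 890.2 on FGFR3WT, or 2.55-fold lower, and its second probe set gave 2.13-fold. Msmo1 stood at 385, 875 and 817, or 2.12-fold lower. Cyp51, the demethylase that acts on lanosterol itself, was 1.78-fold lower (250.3 against 445), and the ketoreductase Hsd17b7 was 1.60-fold lower (239.6 against 382). Among the last enzymes, Sc5d, which introduces a ring double bond, was 1.40-fold lower (185 against 259). Dhcr7, the final reductase, was at least 1.25-fold lower (86.2, below the floor, against 153), a bound that gives it no place in the order. Ebp, the sterol isomerase, stood at 627 on FGFR3Act and 651 on FGFR3WT. The grouping by step was made with these values in view, so the order along the pathway is a description.

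**Figure D2:**
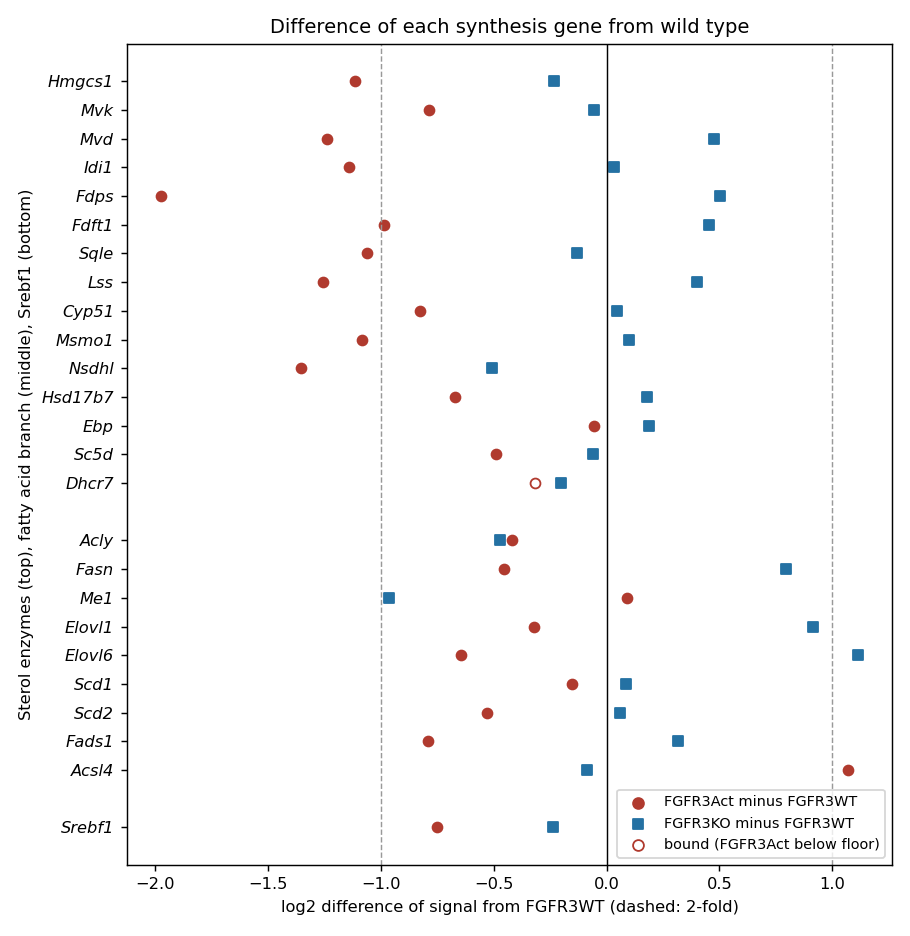
Log2 difference of signal from FGFR3WT for FGFR3Act (circle) and FGFR3KO (square), for the same 25 genes, with dashed lines at 2-fold and an open circle for a bound. Circles of the sterol enzymes run from -1.97 to -0.055 and those of the fatty acid branch from -0.79 to 1.07, and squares of the sterol enzymes lie within -0.51 and 0.50.

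Promoter stretches of several of these genes are printed because all sterol enzymes had the same low array. RefSeq promoter windows (build GRCm38.p6, 300 bases around the start) matched 12 of the 15 sterol enzymes and 6 of the 9 fatty acid genes. The NF-Y box, CCAAT on either strand, was in at least 1 window of 12 of 12 sterol enzymes and 4 of 6 fatty acid genes, against 42.4% of 6269 genes on the array and 37.4% of all 32851 windows. The Sp1 box GGGCGG was in 12 of 12 and 4 of 6, against 63.1% of genes on the array and 35.7% of all windows. The sterol regulatory element in the form TCACNCCAC was in 1 of 12 and 0 of 6, against 1.66% and 1.24%. The E-box CACGTG was in 3 of 12 and 0 of 6, against 11.5% and 7.15%. Below are the 250 bases before the start for the 3 sterol enzymes with 1 window whose signal on FGFR3Act was furthest below FGFR3WT (Nsdhl, Lss, Mvd), the 1 enzyme with that sterol element (Hmgcs1), the enzyme that differed least (Ebp), and the 2 fatty acid genes with 1 window whose signal on FGFR3KO was furthest above FGFR3WT (Elovl6, Fasn). Sequences run 5′ to 3′ on the gene's strand, and capitals mark CCAAT, its reverse complement and, in Hmgcs1, the sterol element.
Nsdhl, chrX:72918271-72918520, plus strand: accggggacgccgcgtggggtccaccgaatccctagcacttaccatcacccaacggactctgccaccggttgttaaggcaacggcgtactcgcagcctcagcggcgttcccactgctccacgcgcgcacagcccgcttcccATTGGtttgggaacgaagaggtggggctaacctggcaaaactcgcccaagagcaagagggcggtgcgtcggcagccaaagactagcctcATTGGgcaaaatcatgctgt
Lss, chr10:76531355-76531604, plus strand: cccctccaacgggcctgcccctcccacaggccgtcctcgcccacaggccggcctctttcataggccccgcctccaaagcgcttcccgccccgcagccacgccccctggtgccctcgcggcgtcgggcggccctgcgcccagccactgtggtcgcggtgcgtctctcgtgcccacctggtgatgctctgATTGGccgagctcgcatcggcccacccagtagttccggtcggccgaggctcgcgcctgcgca
Mvd, chr8:122443423-122443672, minus strand: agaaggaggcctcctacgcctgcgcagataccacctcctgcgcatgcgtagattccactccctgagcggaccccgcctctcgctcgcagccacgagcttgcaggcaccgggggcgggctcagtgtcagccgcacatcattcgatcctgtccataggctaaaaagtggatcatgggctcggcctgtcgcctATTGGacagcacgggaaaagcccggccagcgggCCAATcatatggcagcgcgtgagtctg
Hmgcs1, chr13:119690101-119690350, plus strand: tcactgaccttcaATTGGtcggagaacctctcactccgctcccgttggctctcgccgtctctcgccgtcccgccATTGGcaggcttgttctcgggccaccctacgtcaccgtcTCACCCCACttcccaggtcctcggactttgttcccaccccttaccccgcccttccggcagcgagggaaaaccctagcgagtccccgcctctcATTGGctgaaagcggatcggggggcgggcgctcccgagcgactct
Ebp, chrX:8193513-8193762, minus strand: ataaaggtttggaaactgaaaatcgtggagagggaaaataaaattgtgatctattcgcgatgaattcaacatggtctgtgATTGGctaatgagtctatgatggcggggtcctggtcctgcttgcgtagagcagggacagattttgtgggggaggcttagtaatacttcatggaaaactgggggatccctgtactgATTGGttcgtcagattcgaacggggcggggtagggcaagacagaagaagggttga
Elovl6, chr3:129532136-129532385, plus strand: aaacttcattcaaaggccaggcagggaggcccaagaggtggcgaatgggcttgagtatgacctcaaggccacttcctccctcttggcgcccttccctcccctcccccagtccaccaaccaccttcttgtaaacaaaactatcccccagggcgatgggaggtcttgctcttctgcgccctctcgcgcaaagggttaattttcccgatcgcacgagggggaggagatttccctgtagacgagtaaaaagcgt
Fasn, chr11:120824548-120824797, minus strand: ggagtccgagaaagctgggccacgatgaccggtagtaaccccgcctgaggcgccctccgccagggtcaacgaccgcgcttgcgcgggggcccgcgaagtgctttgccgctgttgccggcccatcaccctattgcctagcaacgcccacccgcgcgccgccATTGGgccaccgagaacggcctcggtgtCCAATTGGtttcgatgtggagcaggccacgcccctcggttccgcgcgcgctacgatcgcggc

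In Hmgcs1 the sterol element began 137 bases before the start, between NF-Y boxes that began 176 and 45 bases before it. Lss had 1 NF-Y box, 62 bases before the start, and Nsdhl and Mvd had 2 each in the printed stretch. Ebp also had 2, at 170 and 55 bases, although its signal on FGFR3Act was close to wild type. Fasn had 3, of which 2 overlapped each other, and Elovl6 had none. A match to these letters describes the sequence and is not evidence of binding.

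In the fatty acid branch the differences between FGFR3Act and FGFR3WT were smaller. Of 9 genes, 7 were lower (55.7% of all genes compared) and 2 higher (44.3%). In size, 0 were at least 2-fold lower (4.79%) and 1 was 2-fold or more higher (4.14%). The median was -0.42, or 1.34-fold lower. Fads1, the desaturase that makes polyunsaturated fatty acids, was the lowest, at 925 on FGFR3Act, 1994 on FGFR3KO and 1599 on FGFR3WT, 1.73-fold below FGFR3WT. Elovl6, the elongase that extends palmitate, was 1.57-fold lower, at 169 against 265. A dimmer second probe set of Elovl6 gave at least 1.94-fold. Scd2, a stearoyl-CoA desaturase that makes monounsaturated fatty acids, was 1.45-fold lower (4385 against 6338). Fatty acid synthase, Fasn, was 1.37-fold lower (545 against 747), and Acly, which splits citrate to acetyl-CoA, 1.34-fold (1526 against 2044). Elovl1, which makes very long chains, was 1.25-fold lower (322 against 403), and Scd1, the other stearoyl-CoA desaturase, 1.11-fold (2596 against 2886).

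The higher genes were Acsl4 and Me1. Acsl4, a ligase that activates arachidonic acid and similar chains and does not build fatty acids, stood at 613 on FGFR3Act, 275 on FGFR3KO and 293 on FGFR3WT. Its signal on FGFR3Act was 2.10 times that on FGFR3WT, on the array with the macrophage markers, whose part in this was not tested. Its second probe set was below the floor on all 3 arrays, and the mean of both gave a log2 difference of 0.55. With the floor at the 60th percentile it was 0.77. Me1, the malic enzyme that supplies NADPH for synthesis, was nearly level between these arrays, at 1946 and 1826. Srebf1, the gene of SREBP1, read 892 on FGFR3Act against 1271 on FGFR3KO and 1500.2 on FGFR3WT, 1.68-fold below the wild-type array.

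The median of the sterol enzymes lay 0.64 below that of the fatty acid branch in log2, a 1.56-fold gap, for FGFR3Act against FGFR3WT. Of the 15 sterol enzymes, 10 were lower than the lowest gene of the fatty acid branch, and 13 were below its median. None of the 9 fatty acid genes was below the sterol median. The sterol enzymes above the fatty acid median were Dhcr7 and Ebp. Sc5d and Hsd17b7 lay among the fatty acid genes, and Mvk, at -0.79, was level with Fads1. Over all settings tried, this gap between the medians ranged from -0.67 to -0.62. With 1 array per genotype, whether the branches would differ this way again in other cultures was not tested.

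**Figure D3:**
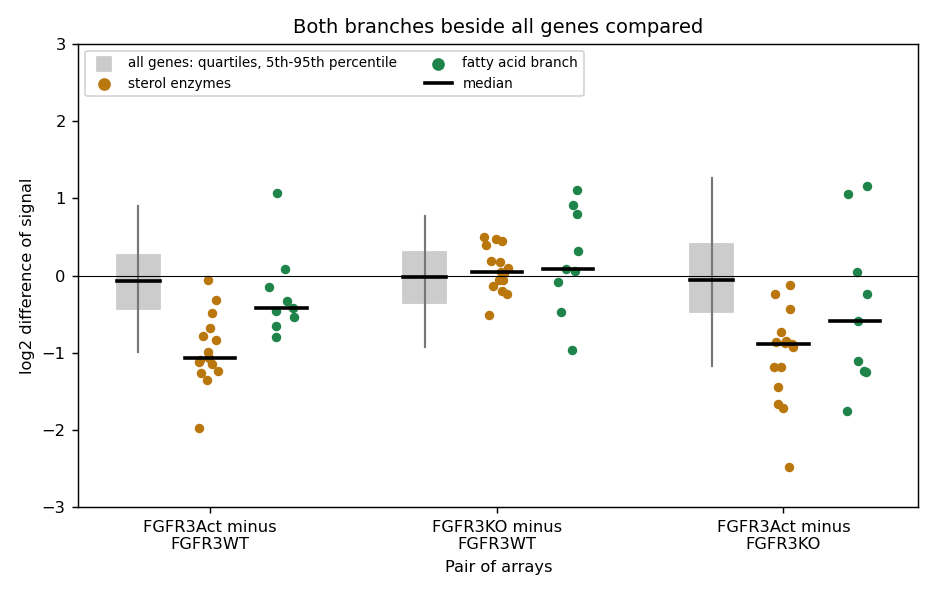
Log2 difference of signal for all genes compared (grey box for the quartiles, line for the 5th to 95th percentile), the 15 sterol enzymes and the 9 fatty acid genes, in each pair of arrays, with black bars at the medians. In FGFR3Act minus FGFR3WT the sterol median is -1.06 and the fatty acid median -0.42, and in FGFR3KO minus FGFR3WT both are near 0, with the fatty acid genes spread from -0.96 to 1.11.

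On FGFR3KO, where as on FGFR3WT only 2 of 20 macrophage markers passed the floor, the sterol enzymes lay around wild type. This comparison uses the same FGFR3WT array as the one above. Of 15 enzymes 6 were lower (51.5% of all genes compared) and 9 higher (48.5%), and 0 were at least 2-fold lower (3.61% of 5184 genes) or at least 2-fold higher (1.93%). The median was 0.047, and 0 of 15 differed by more than the 90th percentile of the gap between probe sets. All genes compared had 5th and 95th percentiles of -0.92 and 0.77 in this pair, both within that gap. The 0 of 15 therefore does not set these enzymes apart from all genes. The extremes were Fdps, 1.42-fold higher (4441 against 3130.4), and Nsdhl, 1.42-fold lower (625 against 890.2). The second Nsdhl probe set was 1.05-fold lower. Mvd was 1.39-fold, Fdft1 1.37-fold and Lss 1.32-fold higher. Hmgcs1 was 1.18-fold and Dhcr7 1.15-fold lower. For Mvk the probe sets disagreed, with 426 on FGFR3KO against 443 on FGFR3WT for 95633_r_at, and 519.9 against 248 for 95632_f_at.

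The fatty acid branch was more spread on FGFR3KO, although its median was also near 0, at 0.085. Its log2 differences spanned 2.08, from -0.96 to 1.11, against 1.01 for the sterol enzymes. Elovl6, Elovl1 and Fasn stood highest of the 9 genes. Elovl6 read 573 on FGFR3KO against 265 on FGFR3WT, or 2.16-fold higher, the 67th highest difference of 5184 genes and the 1 member of 9 at least 2-fold higher (1.93% of all genes). Its second probe set gave 1.65-fold, at 392 against 238. Elovl1 was 1.88-fold higher (759 against 403), and Fasn 1.73-fold (1296 against 747). Of these only the Elovl6 difference exceeded the 90th percentile of the gap between probe sets. Fads1 was 1.25-fold higher (1994 against 1599). Hacd3 (1438 against 2497), Elovl5 (2354 against 2772) and Hsd17b12 (1657 against 1808), elongation genes outside the 9, were lower on FGFR3KO than on FGFR3WT. Elovl2 and Elovl3 were below the floor on all 3 arrays.

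Among the 9 genes of the branch, Me1, which supplies NADPH, and Acly, which supplies acetyl-CoA, were on the other side. Me1 was 1.95-fold lower on FGFR3KO, at 937 against 1826, beyond the 90th percentile of the probe set gap. Acly was 1.39-fold lower, at 1474 against 2044, and so stood lower on both mutant arrays than on the shared FGFR3WT array. None of the 9 was at least 2-fold lower, against 3.61% of all genes. The desaturases were nearly level, with Scd1 at 3060.3 against 2886 and Scd2 at 6612 against 6338. Their direction was not stable, since the second Scd1 probe set was 1.28-fold lower on FGFR3KO and Scd2 was lower after quantile normalisation (-0.27) and cyclic loess (-0.13). Acsl4 (275 against 293) and Srebf1 (1271 against 1500.2) were slightly lower on FGFR3KO. The mitotic genes summed to 23071 on this array against 12556 on FGFR3WT, with 20 and 19 of 21 above the floor, and their part in the values of Elovl6, Elovl1 and Fasn was not tested.

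The direct comparison of FGFR3Act with FGFR3KO reuses the FGFR3Act array of the comparison with FGFR3WT. That every sterol enzyme was lower on FGFR3Act here follows from FGFR3Act being the lowest array for each, so it is not a second result. All 15 were lower, against 53.2% of 5297 genes, and 6 were at least 2-fold lower, against 7.49%. The median was -0.88, beside -0.052 over all genes. For 4 of 15 the difference exceeded 1.26, the 90th percentile of the probe set gap in this pair, and for 1 of 9 fatty acid genes. The share of all genes beyond that gap was not computed. Their 5th and 95th percentiles were -1.17 and 1.27, near that limit, so the 1 of 9 is not set apart from all genes. The summed signal of the 21 mitotic genes was 4183 on FGFR3Act against 23071 on FGFR3KO, and that of the 20 macrophage markers 45461 against 1735. Dermal fibroblast markers had a median of -0.49 in this pair, and 3 of 16 were at least 2-fold lower, against 7.49% of all genes. The part of these 3 lists in the values of either branch was not tested. Fdps was 5.57-fold lower, Mvd 3.29-fold, Lss 3.16-fold, Fdft1 2.71-fold, Msmo1 2.27-fold and Idi1 2.26-fold. In the fatty acid branch 6 of 9 were lower (53.2%) and 3 higher (46.8%). Those past 2-fold numbered 4 on the lower side (7.49%) and 2 on the higher side (8.33%). Those lower were Elovl6 (3.39-fold), Fasn (2.38-fold), Elovl1 (2.36-fold) and Fads1 (2.16-fold), and those higher were Acsl4 (2.23-fold) and Me1 (2.08-fold). The gap between the branch medians was smaller here, at -0.29, and 1 sterol enzyme, Fdps, was below the lowest fatty acid gene. The wider span of the fatty acid branch, 2.91 in log2 against 2.36, came from genes on both sides of 0.

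**Figure D4:**
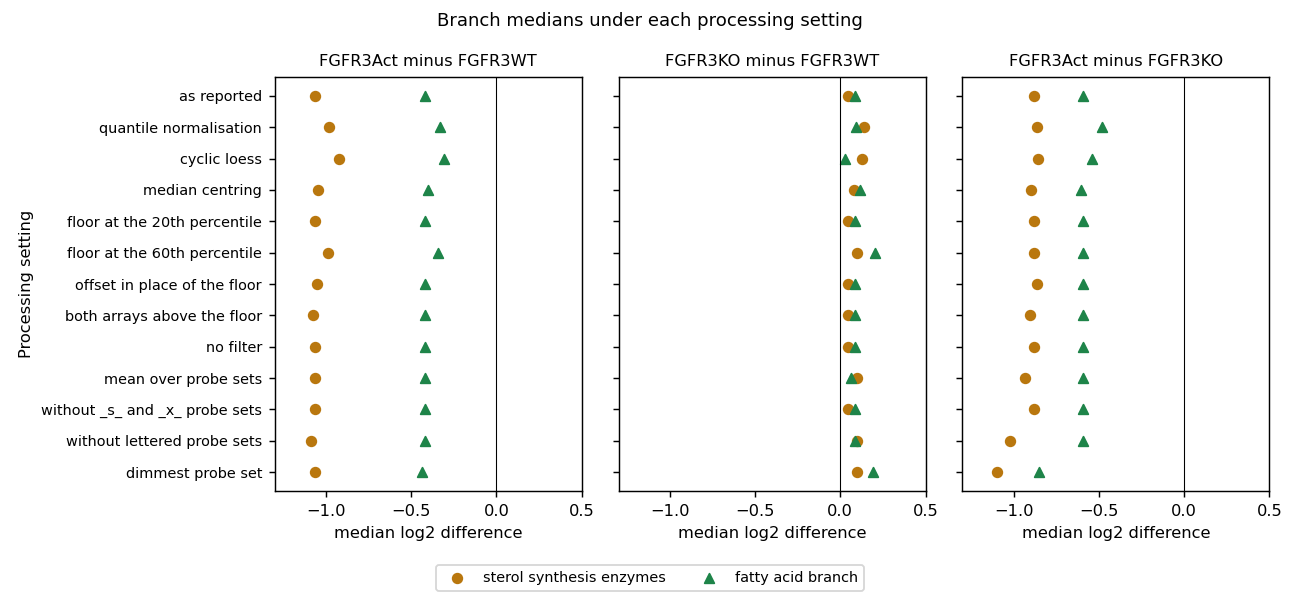
Median log2 difference of the sterol enzymes (circle) and the fatty acid branch (triangle) in each pair of arrays under each processing setting, the reported setting on top. For FGFR3Act minus FGFR3WT the sterol medians stay between -1.09 and -0.93 and the fatty acid medians between -0.44 and -0.31 in these settings.

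Other genes of sterol handling were compared from a list of 21, of which 9 were on the array and 8 could be compared. On FGFR3Act against FGFR3WT, 4 were lower (55.7% of all genes compared) and 4 higher (44.3%). Of the 8, 0 were at least 2-fold apart (8.92% of all genes compared), and the median was -0.12. The lower ones were Tm7sf2, Lbr, Ggps1 and Mbtps1. Tm7sf2, a sterol reductase that acts after lanosterol, stood at 323 on FGFR3Act, 703 on FGFR3KO and 542 on FGFR3WT, which is 1.68-fold lower than FGFR3WT in the active-receptor cells. Lbr, the lamin B receptor with the same reductase activity, was 1.33-fold lower. Ggps1, which makes geranylgeranyl diphosphate, was 1.34-fold lower, and Mbtps1, the protease that cuts SREBPs, 1.26-fold. Npc2, which carries cholesterol out of lysosomes, was 1.44-fold higher. Of 7 genes of sterol export and oxysterols, 5 were higher on FGFR3Act (44.3% of all genes compared) and 2 lower (55.7%). Past 2-fold on the higher side were 3 (4.14% of all genes compared). These were the lipid carrier Apoe (14585 against 245), Ch25h, an enzyme that makes an oxysterol (1505 against 241), and the exporter Abcg1 (1018 against 504). The lower ones were Lpcat3 (1.26-fold) and Abcg2 (1.14-fold). Macrophages express several of these transcripts, and the part of the macrophage signal in them was not tested.

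Further lipid synthesis genes, 17 compared of 35 listed, had a median of -0.048 on FGFR3Act against FGFR3WT, with 1 past 2-fold on the lower side (4.79% of all genes compared) and 1 on the higher (4.14%), both near those shares. The lower one was Pcyt2, an enzyme of phosphatidylethanolamine synthesis, at 358 against 716, and the higher one Taldo1, a pentose phosphate enzyme, at 2047 against 1024. On FGFR3KO against FGFR3WT the same list had a median of -0.035, with 0 at least 2-fold apart (5.54% of all genes compared). These lists were chosen with earlier results of the data known.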

How the data were processed

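The authors' deposited table gives 1 linear intensity per probe set and genotype, made with MAS5 per the submitters' processing notes. No source used here gives the MAS5 version, its scaling target or its detection calls. Per the labels' protocols, each hybridisation started from 15 μg of RNA. Without detection calls, array number and a floor limit the precision.

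The table had 9889 probe sets, 18 of them controls. Of 9376 annotated by GEO's platform file, 9053 had 1 symbol and 323 several, and the latter were not named. Through their gene identifiers 9041 were matched to RefSeq (GRCm38.p6). Each of 7842 genes was represented by its brightest probe set. Pairs of arrays were compared over genes above the floor (40th percentile) on either array. Signals were raised to the floor and taken to log2, which the authors' deposited values are not. Log2 differences, medians and counts past 2-fold were computed with pandas 2.3.3 in Python 3.11.15, and the arithmetic was tested on simulated arrays. Alternatives covered scaling, floor, filter and probe set choice. The text names every gene of the set on the array. Of the other lists it names a selection that follows no fixed cutoff. Of the prepared marker lists, keratinocyte, endothelial and mast cell genes had 1, 0 and 2 members that could be compared on FGFR3Act against FGFR3WT. Members and lists were chosen with earlier results of these data known.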

Additional observations from a re-analysis of the deposited data

How the results depend on the processing

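Results were recomputed under quantile normalisation, cyclic loess, centring on the median, a floor moved to the 20th or the 60th percentile, an offset of 12.0 in place of the floor, stricter and no filters, the mean over probe sets, without _s_ and _x_ probe sets, and with other borders of the branches. Leaving out all lettered probe sets and taking the dimmest probe set were chosen after seeing the data. A median was counted as moved where it changed by over 1.5-fold, changed sign or crossed 2-fold. A count stayed where it was unchanged, or where both values were above 0 and within 1.5-fold. By that rule the fall from 8 to 6 sterol enzymes at least 2-fold lower was no move. Of 261 branch values, medians and counts together, 240 stayed. Several counts were 0 in every setting. Dropping the filter could change none of the 261, since all measured members had passed it. Leaving out _s_ and _x_ probe sets could not either, since no member used one. Among the other borders, leaving out Acat2 could change nothing, since it was not measured. For FGFR3Act against FGFR3WT, the sterol median was -0.98 with quantile normalisation, -0.93 with cyclic loess and -0.99 with the 60th percentile floor. For FGFR3Act against FGFR3KO it was -1.02 without lettered probe sets and -1.10 with the dimmest. The branch gap for FGFR3KO against FGFR3WT, near 0 as reported (-0.037), was 0.042, 0.10, 0.037 and 0.013 with quantile, loess, mean and unlettered probe sets. The fatty acid gene at least 2-fold higher numbered 0 with the 60th percentile floor, the mean and the dimmest probe set, both for FGFR3Act and FGFR3KO against FGFR3WT, and 2 with loess for FGFR3KO. For FGFR3Act against FGFR3KO it numbered 1 in those 3 settings and with quantile normalisation. With the dimmest probe set 1 sterol enzyme (Mvk) was at least 2-fold higher on FGFR3KO than on FGFR3WT. Of 880 single-gene values, 859 stayed, 15 dropped under 2-fold, 5 passed it in the same direction and 1 passed it with a change of sign. That 1 was Mvk for FGFR3KO against FGFR3WT, from -0.058 to 1.07 with the dimmest probe set. No gene at least 2-fold apart as reported turned its sign. A sign change under 2-fold did not by itself count as a move. The filters could not alter a single-gene value, since they only decide which genes are compared. No probe set of the genes here was an _s_ or _x_ one, so leaving such probe sets out altered none either. Apart from values these settings redefine, the cause was not tested. No paired analysis was possible because each genotype has 1 array. Without replicates no spread between cultures is known.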

Other observations

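Fatty acid oxidation, the pathway that breaks down what the fatty acid branch builds, had 0 of 17 genes at least 2-fold apart from FGFR3WT on either mutant array, where all genes compared gave 8.92% on FGFR3Act and 5.54% on FGFR3KO, so that few of 17 would be counted at those shares. Its median log2 difference was -0.25 on FGFR3Act and -0.19 on FGFR3KO. Cpt2, the inner carnitine transferase of mitochondria, stood at 712 on FGFR3Act, 1386 on FGFR3KO and 1318 on FGFR3WT, or 1.85-fold lower on FGFR3Act than on FGFR3WT. Acaa2, the mitochondrial thiolase, stood at 2604, 5815 and 4077, and was 2.23-fold lower on FGFR3Act than on FGFR3KO.

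The prenyl and dolichol branch uses isoprenoids of the mevalonate steps. Of its 5 genes that could be compared between FGFR3Act and FGFR3WT, 2 were lower (55.7% of all genes compared) and 3 higher (44.3%), 0 were at least 2-fold apart (8.92%), and the median was 0.13. With 5 genes these counts do not set the list apart from all genes. Nus1, a subunit of the dolichol-making prenyltransferase, read 1414 on FGFR3Act, 348 on FGFR3KO and 866 on FGFR3WT, which is 2.49-fold lower on FGFR3KO. Pgd, which makes NADPH in the pentose phosphate pathway, was 1.82-fold higher on FGFR3Act and 1.75-fold higher on FGFR3KO than on the shared FGFR3WT array, whereas Me1, another NADPH source, was 1.95-fold lower on FGFR3KO.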
